A study of Sus scrofa with 15 samples.

Results

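Chemokines are small secreted proteins that guide leukocytes along a gradient, and they act through receptors coupled to G proteins on the responding cell. Their names follow the spacing of the first conserved cysteines, which are separated by a single residue in the CXC ligands and adjacent in the CC ligands. In adipose tissue they are known as signals from adipocytes, stromal cells and resident macrophages that draw monocytes, T cells and eosinophils into the fat pad. The genes described here are 10 members of this system chosen by name, namely 5 CXC ligands (CXCL9, CXCL10, CXCL12, CXCL14 and CXCL16), 3 CC ligands (CCL2, CCL5 and CCL11) and 2 receptors (CCR1 and CXCR4). Of the 10, 9 were matched among the 30477 genes of the count files and 8 were among the 14918 genes tested, since CCL11 did not pass the filter on low counts. CXCL16 was not matched to a row of the files and has no value here.

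The backfat of Iberian pigs, a traditional breed of southwest Spain, was sampled by biopsy at the end of the growing period, when the animals were about a year old. Of 44 pigs in the trial, 5 per diet were sequenced, 1 library per pig, and the libraries are named here by diet and replicate number. The sequenced pigs were chosen mainly by the amount and quality of their RNA. The control (C) pigs ate a compound feed, the DOP pigs a compound feed made with dry olive pulp, and the WCOC pigs a compound feed without by-product together with a silage of wet crude olive cake and barley straw given ad libitum. The compound feeds were restricted, with C set at a higher share of ad libitum energy intake than DOP and WCOC. Each diet was fed in 1 pen, so pen, feeding level and diet cannot be told apart, and p-values measure the spread between pigs of a pen. All pigs were sedated and given local anaesthesia before the biopsy, and their sex is not given in the sources used here.

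Counts on genes ranged from 22373715 to 34745218 per library. Levels are given as CPM, the count of a gene scaled to a common library size with TMM factors, and a difference is called when the edgeR quasi-likelihood test gave an adjusted p under 0.05 with a log2 fold change (log2FC) of at least 0.58 in size. By their run identifiers, 1 flow cell (A) carried C replicates 1 to 4 and the 5 WCOC libraries, and another (B) carried C replicate 5 and the 5 DOP libraries. The summed level of 9 adipocyte markers, led by the adipokine gene ADIPOQ, lay between 12930 and 22537 CPM in the 15 libraries, so the labelled tissue carries its defining markers. Skeletal muscle markers were uneven, with a summed level from 24.4 CPM in WCOC replicate 3 to 43799 CPM in DOP replicate 5. The measurements are of whole tissue, so fewer cells of a type and less RNA per cell cannot be told apart.

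The sequences that give the ligands their 2 families could be read from the RefSeq gene models of Sscrofa11.1, the build of the count files. Coding sequence around the first conserved cysteines is shown for ligands of both families, with the codons of the signature in capitals (cysteine, any residue, cysteine in CXC ligands, and 2 neighbouring cysteines in CC ligands).
CXCL9: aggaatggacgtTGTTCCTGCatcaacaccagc
CXCL10: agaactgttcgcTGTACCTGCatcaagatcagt
CXCL14: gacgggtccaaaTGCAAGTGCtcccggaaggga
CCL2: tctccagtcaccTGCTGCtatacacttacc
CCL5: gacaccacacccTGCTGTttttcctacctc
CCL11: gtcgccaccatcTGCTGCtttaatgtgacc
In 5 of these 6 genes the stretch lies within the second coding exon, and in CXCL14 it runs across the junction of coding exons 1 and 2. The first cysteine is codon 31 in CXCL9, codon 30 in CXCL10, codon 25 in CXCL14, codon 34 in CCL2, codon 33 in CCL5 and codon 32 in CCL11.

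Per kilobase of exon, CXCL12 was the most abundant of the 7 genes whose RefSeq models hold untranslated sequence enough for this measure, with a mean of 75.4 ± 12.4 CPM per kb (SD, n = 15). It stood above CCL2, whose mean was 19.7 ± 11.01 CPM per kb, and the 15 values of the 2 genes did not overlap. CCL2 was followed by CXCL14 (mean 11.103 ± 5.77 CPM per kb) and CCL5 (8.54 ± 3.84 CPM per kb), and the ranges of these 3 genes overlapped. Below them came CXCL10 (4.89 ± 2.47 CPM per kb) and CCR1 (2.86 ± 3.82 CPM per kb), whose ranges also overlapped. CCL11 was lowest, with a mean of 0.387 ± 0.350 CPM per kb, and its highest value of 1.10 lay within the range of CCR1. CXCL9 and CXCR4 stayed out of this order because their RefSeq exons hold little or no untranslated sequence. Reads were counted on Ensembl genes, whose exon lengths were not examined, so the order holds only as far as the 2 annotations match.

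**Figure D1:**
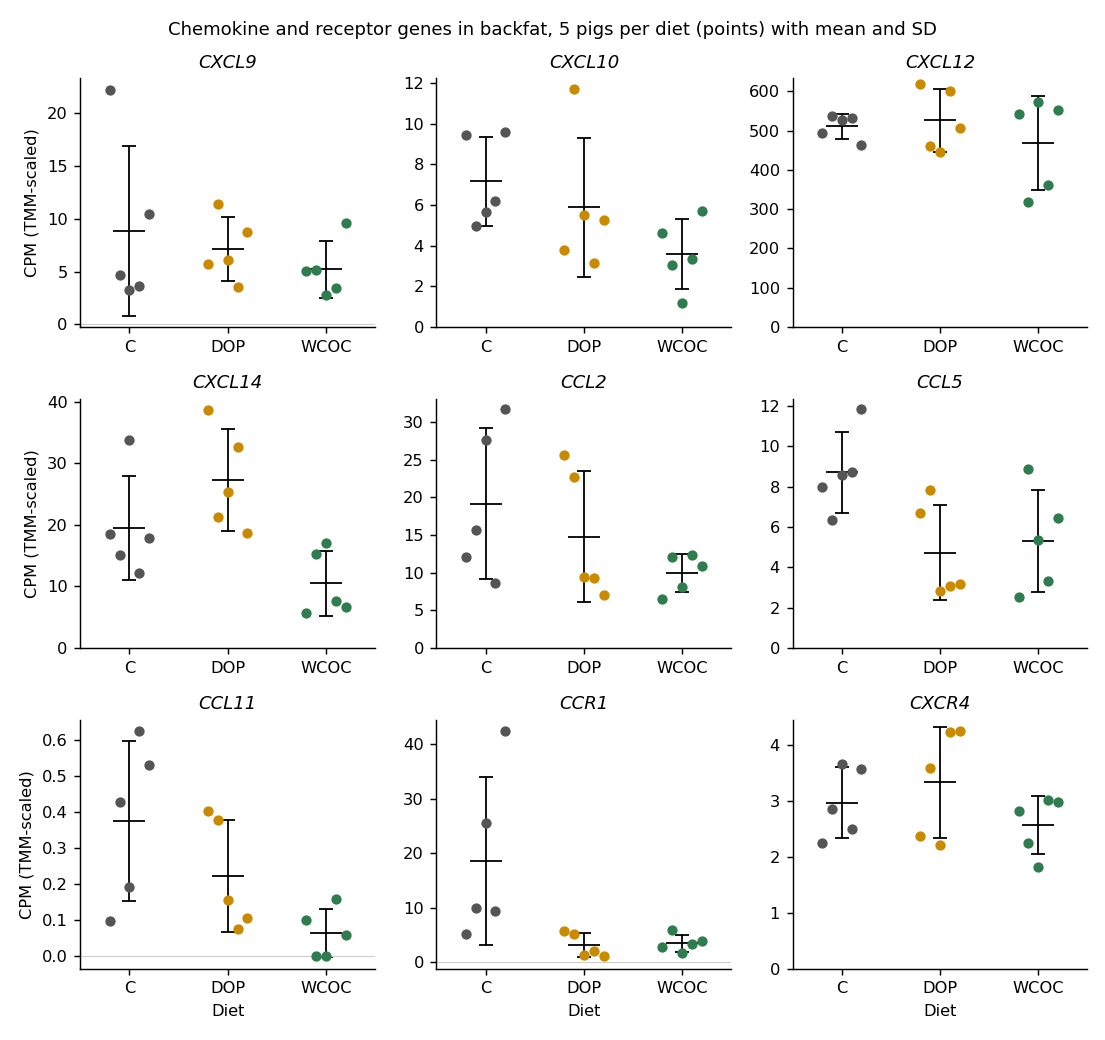
Levels of the 9 matched genes in CPM (vertical axes from 0, linear) by diet, with 1 point per pig and the mean and SD of 5 pigs. CCR1 in the C pigs spreads from 5.25 to 42.4 CPM while the other diets stay under 6 CPM, and CXCL14 in WCOC lies below every DOP pig.

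CXCL9 and CXCL10 encode ligands of CXCR3 that are induced by interferon gamma and draw T cells and NK cells. They are neighbours on chromosome 8, where CXCL9 lies at chr8:71665541-71670236 and CXCL10 at chr8:71693641-71695948, both on the minus strand. CXCL10 lies inside ART3, a gene of the opposite strand, so its count is uncertain to the extent that reads of ART3 were assigned to it. The 250 bases before each annotated start are shown because the levels of this pair moved together between pigs, as described further on, with the motifs searched for in capitals.
CXCL9 chr8:71670237-71670486, minus strand: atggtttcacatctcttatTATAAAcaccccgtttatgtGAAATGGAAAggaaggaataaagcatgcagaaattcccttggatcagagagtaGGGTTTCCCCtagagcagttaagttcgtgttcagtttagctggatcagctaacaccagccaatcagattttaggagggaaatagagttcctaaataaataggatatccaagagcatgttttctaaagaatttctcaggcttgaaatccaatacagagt
CXCL10 chr8:71695949-71696198, minus strand: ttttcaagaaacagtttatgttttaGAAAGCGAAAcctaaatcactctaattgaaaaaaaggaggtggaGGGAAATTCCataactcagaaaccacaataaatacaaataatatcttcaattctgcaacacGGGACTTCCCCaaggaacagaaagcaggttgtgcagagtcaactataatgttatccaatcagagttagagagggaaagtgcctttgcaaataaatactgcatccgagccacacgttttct
Each holds 1 match to the core of the interferon-stimulated response element (ISRE, here 2 TTTC boxes with any 2 bases between, searched on both strands), GAAATGGAAA in CXCL9 and GAAAGCGAAA in CXCL10. Such a match was present in 3.01% of the 19569 promoter windows of 250 bases searched. The NF-kB pattern, here GGG and CC with any 5 bases between and searched on both strands, was also present in both windows, but it was found in 59.2% of all windows and so sets the pair little apart. CXCL9 alone of the 2 holds TATAAA, read on the gene's strand only, which 6.15% of windows hold. None of these matches overlaps a match to another of the motifs, and a match describes letters and not a site in use.

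In the C pigs CXCL9 measured 22.2, 4.66, 3.22, 3.66 and 10.5 CPM in replicates 1 to 5. The DOP pigs had 5.74, 11.4, 6.11, 3.53 and 8.79 CPM, and the WCOC pigs 5.07, 5.13, 2.77, 3.43 and 9.62 CPM. Replicate 1 of C stood highest of all pigs, and the other values of the 3 diets overlapped over most of their range. The log2FC was −0.31 (SE 0.51, adjusted p = 0.804) for DOP vs. C and −0.76 (SE 0.51, adjusted p = 0.368) for WCOC vs. C by edgeR, and without C replicate 1 the latter was −0.09.

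CXCL10 measured 9.47, 4.96, 5.64, 6.19 and 9.58 CPM in the C pigs. The values were 3.78, 11.7, 5.53, 3.15 and 5.26 CPM in DOP and 4.65, 3.07, 1.18, 3.34 and 5.72 CPM in WCOC. In WCOC 4 of 5 pigs lay under every C pig, and only replicate 5 reached into the C range. The mean was 7.17 ± 2.19 CPM (SD, n = 5) in C and 3.59 ± 1.72 CPM in WCOC, a log2FC of −0.99 (SE 0.40). It did not pass the test, with an edgeR p of 0.0250 before and 0.129 after adjustment over all genes. DOP differed from C by −0.28 (SE 0.39, adjusted p = 0.763). CXCL11, the other ligand of CXCR3, was near the floor, with a mean of 0.554 CPM in C, 0.482 in DOP and 0.124 in WCOC (log2FC −2.09, adjusted p = 0.103 for WCOC vs. C).

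CXCL12 encodes the ligand of CXCR4 and is a product of stromal and endothelial cells. It lies at chr14:91516383-91543857 on the plus strand. The level was 495, 538, 528, 532 and 463 CPM in C, 618, 461, 445, 602 and 507 CPM in DOP, and 542, 318, 573, 362 and 552 CPM in WCOC. Replicates 2 and 4 of WCOC were the lowest of all pigs, while the other 3 were above every C pig. The C pigs were the most alike of the diets, with a coefficient of variation of 6.21% against 15.1% in DOP and 25.5% in WCOC. The log2FC was 0.04 (SE 0.16) for DOP vs. C and −0.12 (SE 0.16) for WCOC vs. C, both smaller than their SE. Both its receptors were measured. CXCR4, at chr15:15663652-15666706 on the plus strand, ranged from 1.83 to 4.25 CPM over the 15 pigs, with a mean of 2.97 ± 0.632 CPM in C, 3.33 ± 0.988 in DOP and 2.58 ± 0.520 in WCOC (SD, n = 5), and its largest log2FC was −0.37 (SE 0.23, adjusted p = 0.312) for WCOC vs. DOP. The atypical receptor ACKR3, which takes CXCL12 up without signalling through G proteins, had a mean of 50.1 ± 8.64 CPM in C, 34.5 ± 8.48 in DOP and 34.5 ± 8.26 in WCOC, with an adjusted p of 0.161 and 0.0838 against C (edgeR).

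CXCL14, a ligand expressed in epithelia, fibroblasts and adipose tissue whose signalling receptor is less well defined, was the only one of the 6 tested ligands of the list to be called in any comparison. It lies at chr2:137803988-137813118 on the minus strand. The values were 18.4, 15.1, 33.8, 12.2 and 17.8 CPM in C, 38.7, 21.3, 25.3, 32.6 and 18.6 CPM in DOP, and 5.73, 15.3, 17.1, 7.62 and 6.67 CPM in WCOC. Every WCOC pig was below every DOP pig, and the C pigs overlapped both. CXCL14 was lower in WCOC than in DOP, with a mean of 10.5 ± 5.30 against 27.3 ± 8.28 CPM (SD, n = 5), a fold of 2.61 (log2FC −1.38, SE 0.34, edgeR adjusted p = 0.0209). It was the only gene of the 8 called in this comparison, in which 7.76% of all tested genes were called, and the only one without overlap, as 8.9% of all tested genes were. Against C the log2FC was 0.49 (SE 0.34, adjusted p = 0.489) in DOP and −0.90 (SE 0.34, adjusted p = 0.112) in WCOC by edgeR, and DESeq2 called the latter with an adjusted p of 0.0479. The call between WCOC and DOP was lost without WCOC replicate 1 or WCOC replicate 4, where the adjusted p reached up to 0.0529. No library of DOP shares a flow cell with a library of WCOC, so diet and flow cell are linked there only through the C pigs, and with flow cell as a covariate the log2FC was −1.54 with an adjusted p of 0.368. Fibroblast and preadipocyte markers leaned the same way as CXCL14 in WCOC vs. DOP. All 11 tested had a log2FC below 0 (49.9% of all tested genes) and 6 had p under 0.05 before adjustment (28.1% of all tested genes). Of the 11, 2 were called lower (PDGFRA and LUM). Their summed level ranged from 14734 to 25668 CPM in WCOC and from 20069 to 31518 CPM in DOP, and none was at 0 in all libraries. Other lists leaned down there too, with 9 of 11 macrophage markers (1 called lower) and 5 of 5 skeletal muscle markers (3 called lower) below 0. Endothelial and adipocyte markers leaned up, with 7 of 9 above 0 in each list. The part of these cell types in the CXCL14 difference was not tested.

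**Figure D2:**
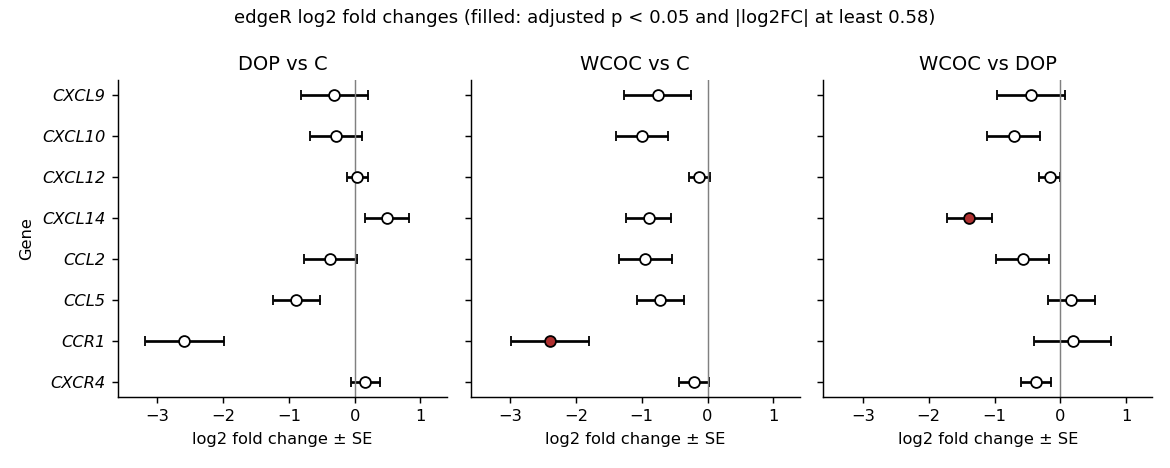
Log2FC with its SE (horizontal axes) for the 8 tested genes in 1 panel per pair of diets, from 1 edgeR fit to 15 libraries, with called genes filled. Only CCR1 in WCOC vs. C (−2.40) and CXCL14 in WCOC vs. DOP (−1.38) are filled, and all 8 points lie below 0 in WCOC vs. C.

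CCL2, also known as MCP-1, is the chief monocyte chemoattractant of adipose tissue and signals through CCR2. The gene lies at chr12:40798109-40800013 on the minus strand, in a cluster of CC ligands that also holds CCL11. Its level was 12.1, 15.6, 27.6, 8.65 and 31.7 CPM in C, 25.6, 22.7, 9.38, 9.31 and 6.97 CPM in DOP, and 6.45, 12.02, 8.13, 12.3 and 10.8 CPM in WCOC. The WCOC pigs were close together, the highest at 12.3 CPM, while both other diets held pigs on either side of that level. The log2FC was −0.95 (SE 0.41, adjusted p = 0.154) for WCOC vs. C by edgeR and −0.37 (SE 0.40, adjusted p = 0.687) for DOP vs. C. Without C replicates 3 and 5, the 2 highest C pigs, these values were −0.28 and 0.29.

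CCL5 (RANTES), a ligand of CCR1 and CCR3 made mainly by T cells, NK cells and macrophages, lies at chr12:39652731-39659121 on the plus strand. It measured 7.99, 6.36, 8.60, 8.73 and 11.9 CPM in C, 6.71, 7.81, 2.84, 3.08 and 3.17 CPM in DOP, and 2.52, 8.87, 5.35, 3.303 and 6.46 CPM in WCOC. In DOP 3 pigs lay below every C pig and the other 2 lay within the C range. The mean was 8.71 ± 2.00 CPM in C, 4.72 ± 2.35 in DOP and 5.30 ± 2.54 in WCOC (SD, n = 5). Neither difference from C passed the test, with a log2FC of −0.89 (SE 0.36, adjusted p = 0.217) for DOP and −0.72 (SE 0.35, adjusted p = 0.211) for WCOC by edgeR.

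CCL11, or eotaxin, which draws eosinophils through CCR3, lies at chr12:40779906-40782862 on the minus strand and was near the floor of detection. The counts were 2, 10, 6, 16 and 16 in C, 10, 10, 5, 2 and 3 in DOP, and 3, 0, 0, 5 and 2 in WCOC. A count of 0 allows up to 3 reads, so the WCOC pigs cannot be placed apart from the lowest pigs of the other diets at this depth. The gene did not enter the main test. In a fit without the filter its log2FC for WCOC vs. C was −2.46 with an adjusted p of 0.0589 (edgeR), and DESeq2 gave −2.55 with an adjusted p of 0.0151. CCL26, another eotaxin that acts on CCR3, had its highest mean in WCOC instead. Its level was higher there, with a mean of 10.4 ± 1.28 CPM, than in C (5.63 ± 1.77 CPM, log2FC 0.89, SE 0.24, adjusted p = 0.0331) and in DOP (4.45 ± 1.57 CPM, log2FC 1.22, SE 0.25, adjusted p = 0.00801, edgeR, n = 5). The lowest WCOC pig had 8.41 CPM and the highest pig of the other diets 8.04 CPM, so CCL26 did not overlap between WCOC and C, as 7.62% of all tested genes did not, nor between WCOC and DOP. With flow cell as a covariate CCL26 was called in WCOC vs. C and not in WCOC vs. DOP. Their receptor CCR3 did overlap, with 2.82 to 9.77 CPM in C, 2.18 to 6.42 in DOP and 1.60 to 5.35 in WCOC.

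**Figure D3:**
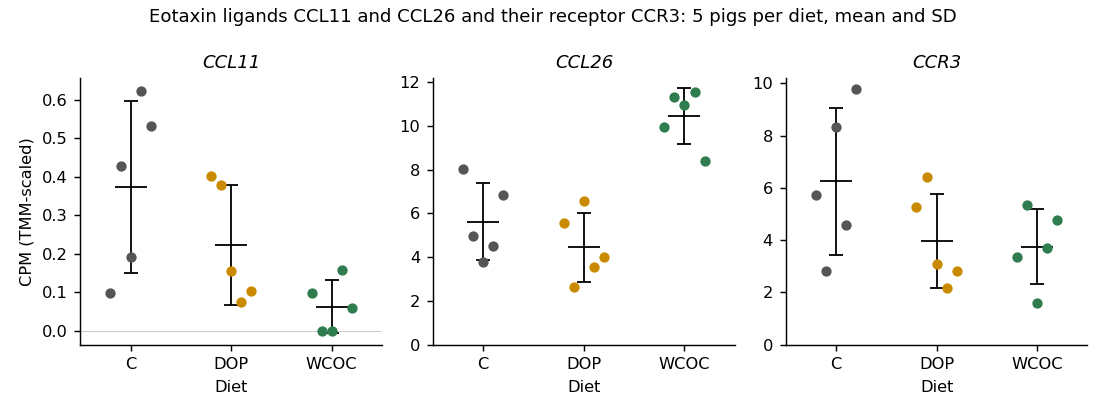
Levels of the eotaxin ligands CCL11 and CCL26 and of their receptor CCR3 in CPM by diet (linear axes), 1 point per pig with the mean and SD of 5 pigs. CCL26 is highest in WCOC (8.41 CPM or more in each pig), while CCL11 stays at or under 0.159 CPM there.

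CCR1 is a receptor for CCL5 and other CC ligands and is carried mainly by monocytes, macrophages and neutrophils. The gene lies at chr13:29227218-29233862 on the minus strand, and its model overlaps that of XCR1 on the same strand, so counts of both are uncertain where they share sequence. It measured 5.25, 10.04, 25.6, 9.35 and 42.4 CPM in C, 5.70, 5.25, 1.42, 2.03 and 1.08 CPM in DOP, and 2.81, 5.95, 1.66, 3.34 and 3.86 CPM in WCOC. C replicates 3 and 5 stood far above the rest, 4 C pigs lay above every pig of the other diets, and C replicate 1 fell within their range. The mean was 18.5 ± 15.4 CPM in C, 3.10 ± 2.20 in DOP and 3.53 ± 1.58 in WCOC (SD, n = 5).

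CCR1 was lower in WCOC than in C by a fold of 5.27 (log2FC −2.40, SE 0.60, edgeR adjusted p = 0.0227). It was 1 of 8 genes called in WCOC vs. C, in which 6.25% of all tested genes were called, so the number called is not a result about the list. For DOP vs. C the log2FC was −2.59 (SE 0.60) and missed the threshold with an adjusted p of 0.0568. In that comparison edgeR called 0 of the 8 genes, against 0.764% of all tested genes. The values of the 2 diets overlapped for each of the 8, and did not for 3.47% of all tested genes. The unadjusted p was under 0.05 for 2 of them, CCR1 and CCL5, where 17.6% of all tested genes had such a p. DESeq2 called CCR1 (adjusted p = 0.00224) and limma-voom called 0. DOP and WCOC were compared with the same C pigs, and between themselves they differed in CCR1 by 0.19 (SE 0.58, adjusted p = 0.866).

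The CCR1 difference rested in part on the 2 high C pigs. Without C replicates 3 and 5 together, a choice made after their values were seen, the log2FC was −1.22 (adjusted p = 0.225) for WCOC vs. C and −1.41 (adjusted p = 0.375) for DOP vs. C. Leaving out single libraries, the WCOC call was lost without C replicate 3, C replicate 5 or WCOC replicate 1, 3 or 4. The edgeR adjusted p was then from 0.0528 to 0.0644. The DOP difference passed only without C replicate 1 (edgeR adjusted p = 0.0264). Calls over all genes also moved with the library left out. They ranged from 0 to 200 in DOP vs. C, with 200 without C replicate 1, and from 468 to 1163 in WCOC vs. C. Within flow cell A, which holds 4 C and 5 WCOC libraries, the log2FC was −1.85 (adjusted p = 0.0494), and in its lane 2 alone it was −1.87 (adjusted p = 0.174). On flow cell B the single C library had 42.4 CPM and the 5 DOP libraries at most 5.70 CPM. With flow cell as a covariate the log2FC was −1.84 (adjusted p = 0.0582) for WCOC vs. C and −3.78 (adjusted p = 0.0232) for DOP vs. C.

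**Figure D4:**
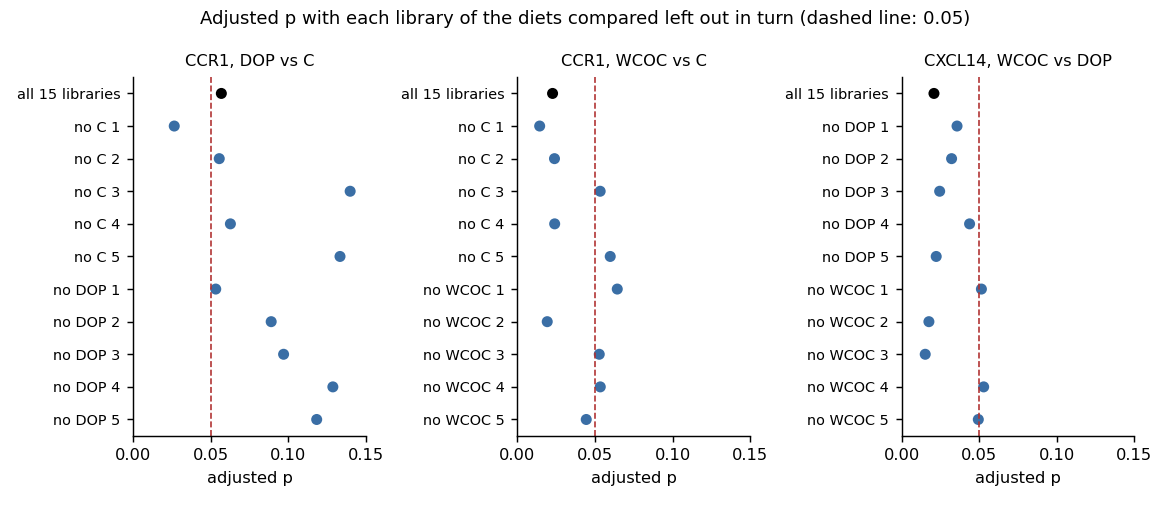
Adjusted p (horizontal axes, linear) of CCR1 in DOP vs. C and WCOC vs. C and of CXCL14 in WCOC vs. DOP, from edgeR on all 15 libraries (black) and with each library of the diets compared left out (blue), with 0.05 as a dashed line. CCR1 in WCOC vs. C crosses the line in 5 of 10 fits and CXCL14 in 2 of 10.

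Macrophage markers moved with CCR1. Their summed level over 11 genes, led by the receptor gene CSF1R, was highest in C replicate 5 (752 CPM) and C replicate 3 (593 CPM), and ranged from 260 to 752 CPM in C, 186 to 465 in DOP and 125 to 346 in WCOC. No marker of the list was at 0 in all libraries. In WCOC vs. C 5 of the 11 were called lower (CD68, CD163, MRC1, AIF1 and MSR1), where 6.25% of all tested genes were called. All 11 had p under 0.05 before adjustment there, against 26.4% of all tested genes. In DOP vs. C 1 was called, MSR1, where 0.764% of all tested genes were called. Without C replicates 3 and 5, 0 of the 11 were called in either comparison with C by edgeR. That fit called 289 of 15252 tested genes in WCOC vs. C and 0 in DOP vs. C, so the 0 in DOP vs. C holds for any list. The part that macrophage number has in the CCR1 values was not tested.

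Across all members the differences leaned one way in WCOC vs. C. The members were chosen with earlier results of these data known, so this lean is not a test of the list. All 8 tested genes had a log2FC below 0, as 49.4% of all tested genes did, and their median was −0.83 beside 0.00 over all genes. CXCL12 (−0.12) and CXCR4 (−0.21) were smaller than their SE, and CXCR4 had 0.022 without C replicates 3 and 5. Of the 8, 4 had p under 0.05 before adjustment (CCR1, CXCL14, CXCL10 and CCL2) where 26.4% of all genes did. In DOP vs. C 5 of 8 were below 0 (47.8% of all tested genes) with a median of −0.30, and in WCOC vs. DOP 6 of 8 (49.9% of all tested genes) with a median of −0.41. Only CCL5 and CCR1 were above 0 in WCOC vs. DOP, with 0.17 and 0.19, both smaller than their SE.

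Between pigs of the same diet 2 pairs were the closest among the members, taking log2 CPM after subtracting each diet mean over the 15 libraries. Of 108 relations computed between these genes, 5 others and 3 marker sums, those below are given as a description, since all points share their libraries and depth. CCL2 and CCR1 had a Pearson r of 0.89 and a Spearman rho of 0.85. The r was 0.83 without C replicate 5 and DOP replicate 1, the libraries farthest from the median of CCL2, and 0.73 in the 9 libraries of flow cell A. CXCL9 and CXCL10 had an r of 0.74 and a rho of 0.78, with an r of 0.77 without C replicate 1 and WCOC replicate 5 and of 0.68 in flow cell A. Between the 2 pairs the r ran from −0.01 (CXCL9 and CCR1) to 0.28 (CXCL10 and CCR1), and these values moved with the libraries used. Without C replicate 1 and WCOC replicate 5 the r of CXCL9 and CCR1 was 0.43, and in flow cell A it was −0.33. For CXCL10 and CCR1 it was −0.20 without DOP replicate 2 and WCOC replicate 3, the libraries farthest from the median of CXCL10, and 0.16 in flow cell A. CCL5 was nearer to CCL2 (r 0.65) and CCR1 (r 0.65) than to CXCL9 (r 0.28), but in flow cell A alone its r was 0.28 with CCL2 and 0.33 with CCR1. CXCL14 ran against CXCL10 (r −0.61), with an r of −0.45 without DOP replicate 2 and WCOC replicate 3 and of −0.62 in flow cell A. Its r with CCL11 was −0.55, with −0.41 without C replicate 3 and WCOC replicate 3 and −0.79 in flow cell A. CCL11 was near the floor of detection, so its r values are uncertain. Outside the members, CXCL11, also near the floor, had an r of 0.73 with CXCL9 and 0.69 with CXCL10. In flow cell A these were 0.85 and 0.80. CCR3 reached into both pairs, with an r of 0.78 with CCR1, 0.71 with CCL2 and 0.68 with CXCL10. The last was 0.31 without DOP replicate 2 and WCOC replicate 3. The macrophage sum had an r of 0.80 with CCR1, 0.76 with CCL2, 0.76 with CCL5, 0.56 with CXCL14 and 0.15 with CXCL10. The skeletal muscle sum had an r of 0.63 with CXCR4, and of 0.45 in flow cell A.

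**Figure D5:**
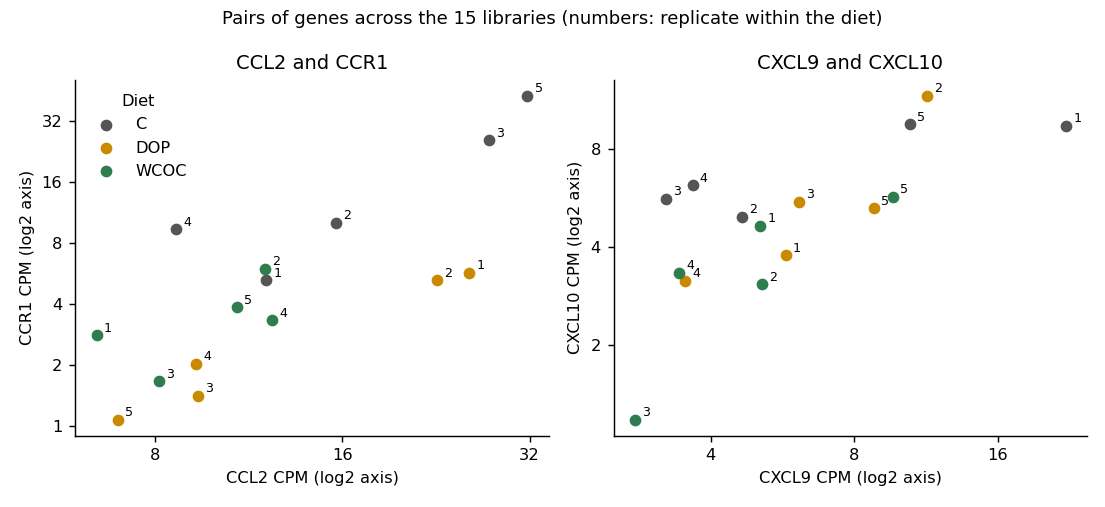
CCR1 against CCL2 and CXCL10 against CXCL9 in CPM on log2 axes, 1 point per pig, coloured by diet and numbered by replicate. C replicates 3 and 5 sit at the upper right for CCL2 and CCR1 (r 0.89 within diets), and at a given CCL2 level the DOP pigs lie below most C pigs.

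The 250 bases before the starts of CCR1 and CCL2, shown because this pair was the closest, hold no match to the interferon-stimulated response element core or the NF-kB pattern, but both hold the palindromic pattern TTCNNNGAA of the gamma-activated site, in capitals.
CCR1 chr13:29233863-29234112, minus strand: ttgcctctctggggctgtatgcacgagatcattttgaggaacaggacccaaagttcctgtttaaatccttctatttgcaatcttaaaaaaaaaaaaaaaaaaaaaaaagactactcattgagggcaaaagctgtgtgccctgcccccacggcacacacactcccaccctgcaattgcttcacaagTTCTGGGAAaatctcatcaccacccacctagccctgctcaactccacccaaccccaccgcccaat
CCL2 chr12:40800014-40800263, minus strand: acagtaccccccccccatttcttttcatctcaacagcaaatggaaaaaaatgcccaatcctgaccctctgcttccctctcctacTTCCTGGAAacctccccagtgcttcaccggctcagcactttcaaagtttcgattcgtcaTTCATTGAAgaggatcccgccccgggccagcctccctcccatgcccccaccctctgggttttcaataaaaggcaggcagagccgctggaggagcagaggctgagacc
CCR1 holds 1 such match and CCL2 holds 2, and 6.12% of all promoter windows hold at least 1. No match overlaps another motif searched.

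The genes whose levels were most like each member within diets, among tested genes with a symbol, were as follows, with Pearson r over 15 libraries. Each was picked as highest from 11954 genes compared, so a high r is partly given by the search. The r values are a description, and no relation was tested. CCR1 was most like LCP1 (r 0.97), GP91-PHOX (0.96) and PLXNC1 (0.96), genes of leukocyte actin bundling, the phagocyte oxidase and a plexin receptor. Among the genes most like CCL2 were the transcription factor gene MYC (0.93) and MYO1F (0.93), a myosin of immune cells. CCL5 was most like CD163 (0.86), a macrophage scavenger receptor, AKNA (0.84) and BANK1 (0.84). CXCL9 was most like TIPARP (0.82), FLT3 (0.78) and SLC2A6 (0.76), and CXCL10 most like FOSB (0.85), CXCL2 (0.81) and TMCC2 (0.80). FOSB and CXCL2 are known as immediate-early and neutrophil-attracting genes. For CXCL10 and CXCL2 the r was 0.48 without DOP replicate 2 and WCOC replicate 3, and 0.84 in flow cell A. CXCL2 had 65.7 CPM in DOP replicate 2 and at most 10.7 CPM in the other DOP pigs. CXCL12 was most like IGF1R (0.86), PPP1R13L (0.83) and COL4A4 (0.81), and CXCL14 most like GLIS3 (0.90), XG (0.85) and LRRC17 (0.85). The nearest genes to CXCR4 were SLC22A23 (0.84), BMP5 (0.83) and ADAM23 (0.82).

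The rest of the chemokine system was read from a list of 69 ligands, receptors and signalling genes, of which 56 were in the files and 40 tested. In WCOC vs. C 4 of the 40 were called, 1 higher (CCL26) and 3 lower, where 6.25% of all tested genes were called, and 16 had p under 0.05 before adjustment, where 26.4% of all tested genes did. The 3 lower genes were XCR1, the XCL1 receptor of cross-presenting dendritic cells (log2FC −1.83, SE 0.47, adjusted p = 0.0249), RGS1, which ends G protein signalling in lymphocytes and macrophages (log2FC −2.66, SE 0.75, adjusted p = 0.0363), and VAV1, an exchange factor of blood cells (log2FC −1.49, SE 0.40, adjusted p = 0.0321). C replicate 5 was the highest of all pigs for each of the 3, with 2.62 CPM of XCR1, 27.1 CPM of RGS1 and 42.6 CPM of VAV1. XCR1 was low, with 7 to 79 counts per library and a mean of 0.350 CPM in WCOC. Its model overlaps that of CCR1 on the same strand, so its fall and that of CCR1 are not clearly separate. In DOP vs. C edgeR called 0 of the 40, with 8 at p under 0.05 before adjustment (17.6% of all tested genes), and DESeq2 called 3 (DOCK2, RGS1 and VAV1). Without C replicates 3 and 5, edgeR called 0 of the 40 in WCOC vs. C and CCL26 in WCOC vs. DOP. Of 15252 tested genes, that fit called 289 in WCOC vs. C and 1084 in WCOC vs. DOP. With all libraries CCL26 was the single gene of the list called in WCOC vs. DOP.

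By role, the most abundant other ligands were CCL19 (mean 32.9 CPM over 15 pigs), CCL14 (20.3 CPM) and CXCL2 (14.6 CPM), and neither CCL19, CCL14 nor CXCL2 was called in any comparison. Among receptors CCR3 (4.65 CPM) and CX3CR1 (3.99 CPM) led, both uncalled, with log2FC in WCOC vs. C of −0.74 and −0.52. The atypical receptors, which bind chemokines without G protein signalling, were led by ACKR4 (345 CPM), followed by ACKR1 (41.2 CPM) and ACKR3 (39.7 CPM), and none of the 6 was called. Among signalling genes GNAI2 (244 CPM), GRK3 (139 CPM) and GRK2 (83.7 CPM) were highest, and their log2FC stayed between −0.19 and 0.12 in the 3 comparisons.

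Interferon response genes were listed beside CXCL9 and CXCL10, and 28 of 35 were tested. In WCOC vs. C, where 6.25% of all tested genes were called, 3 were called lower, the ubiquitin-like ISG15 (log2FC −0.99, adjusted p = 0.0257) and the antiviral GTPases MX2 (log2FC −0.95, adjusted p = 0.0459) and MX1 (log2FC −0.83, adjusted p = 0.0376). In WCOC vs. DOP, with 7.76% of all tested genes called, 2 were called lower, GBP1 (log2FC −1.28, adjusted p = 0.00981) and MX2 (log2FC −0.91, adjusted p = 0.0490), and in DOP vs. C edgeR called 0 with 6 at p under 0.05 before adjustment (17.6% of all tested genes), where DESeq2 called 1. Without C replicates 3 and 5 the calls of edgeR were 0 in WCOC vs. C and 2 in WCOC vs. DOP. That fit called 289 and 1084 of 15252 tested genes there. With flow cell as a covariate the interferon calls were 0 in each comparison. Of 14918 tested genes, that covariate fit called 170 in DOP vs. C, 680 in WCOC vs. C and 1 in WCOC vs. DOP. In WCOC vs. C 6 of the 28 had an edgeR p under 0.05 before adjustment, beside 26.4% of all tested genes, with 19 below 0 and 9 above. In WCOC vs. DOP 6 had such a p, beside 28.1% of all tested genes, with 18 below 0 and 10 above. The median log2FC of the list in WCOC vs. C was −0.12, beside −0.99 for CXCL10 and −0.76 for CXCL9.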

How the data were processed

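RNA-seq of 15 backfat libraries was used. The authors aligned the read pairs to Sscrofa11.1 with HISAT2 and counted them per gene with HTSeq, and the deposited values are raw counts per Ensembl gene. The alignment was set for stranded reads, but the strand option of the counting is not given in the sources used here, so genes that overlap a neighbour are uncertain. Read pairs not assigned to a gene (23.4% to 32.8% of a library) stayed out. Labels gave the diet and replicate of each library, and run identifiers its flow cell and lane.

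Genes were kept with filterByExpr of edgeR 4.0.16 (R 4.3.3), scaling was by TMM, and the 15 libraries entered a single quasi-likelihood fit with 3 diet means. Tests were two-sided with Benjamini-Hochberg adjustment over 14918 genes, and a prior count of 1 was added for log2 CPM. In counts simulated for DOP vs. C with 200 genes changed 3-fold, 177 were called, beside 5 unchanged genes of 14815 tested. The simulated counts held no effect of pen, flow cell or an outlying library, so they do not give the error rates of the real comparison. Alternatives were DESeq2 1.42.0, its size factors, limma-voom (limma 3.58.1), a robust fit, a minimum of 10 counts in each library, no filter, fits to 2 diets at a time, a replicate block, a flow cell covariate, flow cell A or its lane 2 alone, no limit on the log2FC, and each library left out in turn.

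The members and gene lists were chosen with earlier results of these data known. All members are named. Other chemokine genes are named when called or among the 3 most abundant of their role, interferon genes when called (at most 5), and further ones (CXCL11 and DOCK2) after their values were seen. The marker lists (macrophage, T and NK cell, eosinophil and mast cell, neutrophil, fibroblast and preadipocyte, endothelial, adipocyte, skeletal muscle, epidermis and hair follicle) are named by their most abundant gene. Likeness is the Pearson correlation of log2 CPM centred within diets, and the 3 highest are given. A few genes that these rules would name are not reported here. Gene models and sequences are those of RefSeq for Sscrofa11.1, which held all 10 genes, and promoters are the 250 bases before the start.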

Additional observations from a re-analysis of the deposited data

Results flagged for a closer look

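CXCL10 in the DOP pigs had 1 library far from the others. Replicate 2 had 11.7 CPM, the next highest DOP pig had 5.53 CPM, and the gap took up 0.72 of the range of the 5 pigs, above the limit of 0.71 for a group of this size. In all, 27 groups of 5 pigs (9 genes in 3 diets) were examined this way and 1 exceeded the limit, where chance alone exceeds it in about 1 group in 20. The same library was also the highest DOP pig for CXCL9, with 11.4 CPM. Without it the log2FC of CXCL10 for DOP vs. C was −0.70.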

How the results depend on the processing

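Counts of called genes were stable under the size factors of DESeq2, limma-voom, a minimum of 10 counts in each library, no filter and the robust fit for both lists of chemokine genes. Of the 10 listed members, DESeq2 called 1 in DOP vs. C and 3 in WCOC vs. C (CCL11, CCR1 and CXCL14), and flow cell as a covariate gave 1 in DOP vs. C, 0 in WCOC vs. C and 0 in WCOC vs. DOP. In WCOC vs. C, lane 2 of flow cell A alone gave 0, as did the fit without C replicates 3 and 5, which was chosen after seeing the data. Of the other chemokine genes, DESeq2 called 3 in DOP vs. C, 8 in WCOC vs. C and 2 in WCOC vs. DOP, and flow cell as a covariate gave 1, 1 and 0 in the same order. In WCOC vs. C flow cell A alone gave 2, its lane 2 alone 0 and the fit without C replicates 3 and 5 gave 0, and no limit on the log2FC gave 2 in WCOC vs. DOP. With each library left out in turn, the members called ranged from 0 to 1 in DOP vs. C, 0 to 2 in WCOC vs. C and 0 to 1 in WCOC vs. DOP, and the other chemokine genes from 0 to 1, 0 to 4 and 1 to 1. The cause was not tested in these cases.

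The sign of the log2FC turned for 5 uncalled values in fits other than those that leave out 1 library. It was 0.049 for CXCL9 in DOP vs. C with limma-voom, 0.29 for CCL2 in DOP vs. C and 0.022 for CXCR4 in WCOC vs. C without C replicates 3 and 5, and −0.10 for CXCR4 in DOP vs. C and 0.42 for CCL2 in WCOC vs. DOP with flow cell as a covariate. With single libraries left out it ranged from −0.55 to 0.36 for CXCL9 and −0.029 to 0.089 for CXCL12 in DOP vs. C, and from −0.10 to 0.42 for CCL5 and −0.080 to 0.53 for CCR1 in WCOC vs. DOP.

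Pigs of different diets share only a replicate number, and the correlation of same-numbered libraries ran from −0.50 to 0.34, so the numbers do not pair them. With the replicate number as a block the members called in WCOC vs. C were 0 (CCR1 adjusted p = 0.0704) and the other chemokine genes 1 (XCR1), interferon genes had 0 calls in WCOC vs. C and 1 in WCOC vs. DOP, macrophage markers had 0 in WCOC vs. C, and the calls over all genes were 0, 473 and 561 in the 3 comparisons, beside 114, 933 and 1158 without the block. Over all genes DESeq2 gave 518, 1215 and 1528 calls and limma-voom 19, 882 and 822. Flow cell as a covariate gave 170, 680 and 1 calls, and the fit to only the diets compared gave 2, 766 and 869. Without C replicates 3 and 5 the calls over all genes were 0, 289 and 1084. In WCOC vs. C flow cell A alone gave 486 and its lane 2 alone 34. With each library left out in turn, calls over all genes ranged from 0 to 200, 468 to 1163 and 639 to 1291. Depth limits CCL11 and CXCL11, whose counts reached 0 in single libraries.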

Other observations

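Markers of other cell types in the same tissue gave these counts in WCOC vs. C. Over all tested genes, 6.25% were called there and 26.4% had p under 0.05 before adjustment. For T and NK cells (12 tested, led by CD247 with 51.2 CPM) 1 was called lower, NKG7. Of the 12, 7 had a log2FC below 0 and 5 above, with a list median of −0.03. For eosinophils and mast cells (5 tested, led by MS4A2 with 17.6 CPM) 4 had a log2FC below 0 and 3 had p under 0.05 before adjustment, with a list median of −0.74, and the 1 gene called was KIT, the only one above 0. For neutrophils (5 tested, led by S100A12 with 28.7 CPM) 0 were called by edgeR, 1 had p under 0.05 before adjustment, and DESeq2 called 1. Of 11 fibroblast and preadipocyte genes, led by COL3A1 (13656 CPM), 4 were called lower, of 9 endothelial genes, led by PECAM1 (604 CPM), 2 were called higher, and of 9 adipocyte genes, led by ADIPOQ (5011 CPM), 1 was called higher. Skeletal muscle (5 tested, led by ACTA1 with 2525 CPM) had 0 called in WCOC vs. C by edgeR, 0 at p under 0.05 and 0 by DESeq2. In WCOC vs. DOP, where 7.76% of all tested genes were called, 3 of the muscle genes were called lower. Epidermis and hair follicle (4 tested, led by KRT10 with 9.18 CPM) likewise had 0 in WCOC vs. C by edgeR, at p under 0.05 and by DESeq2, and 1 called higher in WCOC vs. DOP.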
